A study of Mus musculus with 3 samples.

Results

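The genes of cholesterol and fatty acid metabolism described here are 36 named genes. They were taken by symbol from a deposited expression table that holds values for 33101 gene names. The choice was by role in lipid metabolism, with earlier results of these data known. The tissue was dentate gyrus, the part of the hippocampus built around the granule cell layer, dissected from both hemispheres of male wild-type mice of the strain C57Black6 aged 8 to 10 weeks. All 3 libraries, described as biological replicates, belonged to this single group, with no other genotype, treatment or time. The table gave 1 FPKM value per gene for the group (a level corrected for transcript length and library size), so each value below stands without a replicate error or a test, and the depth behind it is unknown.

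Brain cholesterol is made within the brain, because lipoproteins of the blood do not cross the intact blood-brain barrier. Astrocytes and other glia pass it to neurons on particles built around apolipoprotein E, and neurons discard the excess by converting it to 24S-hydroxycholesterol. Synthesis of sterols and fatty acids is switched on by the SREBP transcription factors, which the escort protein SCAP carries to the Golgi when sterols are scarce and which the INSIG proteins hold back in the endoplasmic reticulum when sterols are plentiful.

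The dissected tissue carried the markers of its label. All 7 dentate granule cell markers exceeded 10 FPKM, a level reached by 30.8% of protein-coding names. They lay between 23.5 FPKM for Tdo2 and 111 FPKM for C1ql2, with Prox1 at 44.8 FPKM. Most markers of the glia that handle lipids were abundant too, with medians of 94.4 FPKM for 7 astrocyte genes and 47.4 FPKM for 7 oligodendrocyte genes. The lowest of each list were the astrocyte marker Sox9 at 0.925 FPKM and the oligodendrocyte marker Mog at 6.72 FPKM. Medians were 289 FPKM for 6 pan-neuronal genes and 26.7 FPKM for 6 microglial genes. Medians were 8.09 FPKM over 6 endothelial and pericyte genes and 0.273 FPKM over 5 choroid plexus genes. The 6 genes of liver and adipose tissue, where many of the 36 genes are also active, had a median of 0.00406 FPKM, and Alb, Adipoq and Cidea were listed at 0. In whole tissue, fewer cells of a type and less RNA per cell cannot be told apart, and which cells carried each transcript was not tested.

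Sterol control acts through short promoter sequences, and 3 promoters are shown as examples. Each is the stretch of 250 bases before the RefSeq start site in GRCm38.p6, written 5′ to 3′ on the gene's strand. Hmgcs1 is shown because its window alone among the members' windows held the core of the sterol regulatory element, Srebf2 and Insig1 because they form the control loop itself. Capitals mark TCACNCCAC or its first 8 letters with C at the open position (TCACCCCA), the E-box CACGTG, which SREBPs can also bind, and CCAAT, the site of the partner factor NF-Y, each on either strand.
Hmgcs1, chr13:119690101-119690350, plus strand: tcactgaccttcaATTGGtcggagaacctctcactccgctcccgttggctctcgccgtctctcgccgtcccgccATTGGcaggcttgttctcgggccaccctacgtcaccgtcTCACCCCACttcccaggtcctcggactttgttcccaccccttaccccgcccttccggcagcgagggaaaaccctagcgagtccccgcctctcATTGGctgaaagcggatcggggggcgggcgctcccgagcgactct
Srebf2, chr15:82147019-82147268, plus strand: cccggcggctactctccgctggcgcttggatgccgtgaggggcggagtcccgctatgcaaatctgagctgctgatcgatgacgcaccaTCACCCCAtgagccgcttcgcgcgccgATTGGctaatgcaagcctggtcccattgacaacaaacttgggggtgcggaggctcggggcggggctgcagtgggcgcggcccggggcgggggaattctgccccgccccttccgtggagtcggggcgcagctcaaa
Insig1, chr5:28071162-28071411, plus strand: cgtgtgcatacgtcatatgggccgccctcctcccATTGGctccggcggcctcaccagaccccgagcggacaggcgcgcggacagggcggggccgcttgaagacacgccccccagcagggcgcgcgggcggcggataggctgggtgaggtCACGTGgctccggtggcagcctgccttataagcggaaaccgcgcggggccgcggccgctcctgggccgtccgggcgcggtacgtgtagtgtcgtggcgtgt

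Promoter windows were found for 27 of the 36 genes, 37 windows in all, because 6 genes had more than 1. Abcg1, Lpl, Fdps, Fdft1, Sqle, Npc1, Scd1, Scd2 and Fads1 had no window and were not searched. TCACNCCAC occurred in 1 of the 37 windows and in 1.05% of all 32851 windows. In Hmgcs1 it began 137 bases before the start site. The overlapping 8 letters TCACCCCA, searched after the Srebf2 window had been read, occurred in 3 windows, those of Hmgcs1, Srebf2 and Apoe, against 1.34% of all windows. CACGTG occurred in 4 member windows (10.8%), of Abca1, Dhcr7, Insig1 and Scap, against 6.02% of all windows. CCAAT occurred in 21 member windows (56.8%) against 33.8% of all windows and 35.4% of those of protein-coding genes. GGGCGG, the GC box bound by SP1, occurred in 62.2% of member windows, 32.7% of all windows and 42.6% of protein-coding ones. The Mvk window held CCAAT at 5 places. None of the 3 Apoe windows held the CCAAT letters, the E-box or the GC box. A match of letters is a description of the window and shows no binding.

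Most of the 36 genes were expressed at a moderate level. Of them, 31 (86.1%) reached 1 FPKM, against a background of 56.4% of 20135 protein-coding names. At 10 FPKM or more were 24 (66.7%), against 30.8% of protein-coding names and 21.1% of all names. The median was 14.2 FPKM, which lay above 75.7% of protein-coding names, whose own median was 2.46 FPKM. Over names at 1 FPKM or more, the medians were 17.0 FPKM for 31 members and 11.5 FPKM for protein-coding names. Apoe and Scd2, 2 of the 36, exceeded 100 FPKM, against 2.63% of protein-coding names. Pltp, Acaca and Mvd lay under 1 FPKM, and Hmgcs1 and Acacb were listed at 0.

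**Figure D1:**
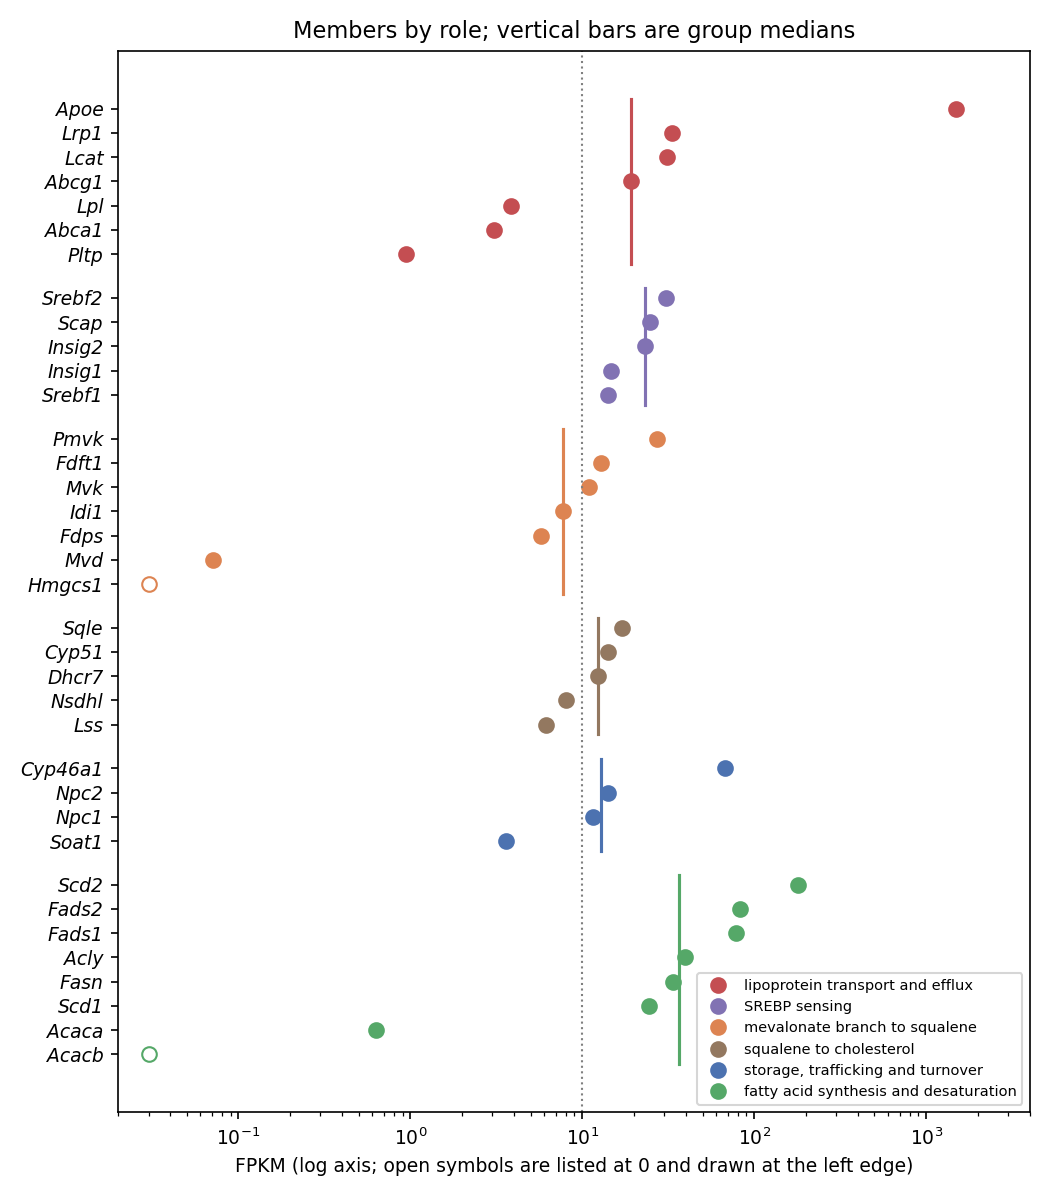
The level of each of the 36 genes in FPKM on a log axis, 1 point per gene from the single group value, arranged by role with vertical bars at the role medians and a dotted line at 10 FPKM. Apoe at 1493 FPKM stands apart on the right, the 5 SREBP sensing genes lie close together between 14.0 and 30.5 FPKM, and Hmgcs1 and Acacb, listed at 0, are drawn as open symbols.

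Lipoprotein genes spanned the widest range among the roles whose members all had a value above 0. Apoe, the main apolipoprotein of brain particles, was at 1493 FPKM, the 12th highest of all protein-coding names, and made up 63.6% of the FPKM summed over the 36 genes and 0.326% of the sum over all names. It stood 8.34-fold above Scd2, the next member. Apoe also exceeded each of the 7 astrocyte markers, the highest of which was Aldoc at 510.6 FPKM. Among 10 other apolipoprotein genes, Clu (apolipoprotein J) was at 585 FPKM, with Apoe 2.55-fold above it, and Apod was at 33.1 FPKM. The other 8, whose products are known mainly from plasma lipoproteins, were between 0 and 0.0825 FPKM, with Apoa4, Apoc2 and Apoc3 listed at 0.

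The transporters that load sterol onto particles differed in level. Abca1, which passes cholesterol and phospholipid to lipid-poor apolipoproteins, was at 3.05 FPKM, and Abcg1, which adds cholesterol to particles already formed, was at 19.1 FPKM, a ratio of Abca1 to Abcg1 of 0.160. Lcat, the enzyme that esterifies cholesterol on the particle, was at 31.2 FPKM, and Pltp, which moves phospholipid between particles, was at 0.937 FPKM. Lcat was therefore 33.3-fold above Pltp. An antisense entry, Gm16156 at 0.0716 FPKM, covers the whole Lcat entry. The Pltp entry overlaps Ctsa, a gene on the opposite strand at 2.53 FPKM, over 8.33% of its length. The longest coding Pltp transcript also shares sequence with Ctsa. Whether these overlaps moved the values of Lcat and Pltp, and so their ratio, was not tested. Lpl, which releases fatty acids from triglyceride-rich particles, was at 3.87 FPKM.

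On the uptake side, Lrp1, a large endocytic receptor for apolipoprotein E, was at 33.3 FPKM. Of 6 other genes of lipoprotein uptake, 5 reached 1 FPKM, against 56.4% of protein-coding names. Their median was 11.9 FPKM, or 6.79 FPKM as a geometric mean. The sorting receptor gene Sorl1 was highest at 35.6 FPKM, followed by Scarb1, a receptor for high-density lipoprotein, at 17.2 FPKM. The reelin receptors Vldlr and Lrp8, which also bind apolipoprotein E, were at 12.8 and 11.0 FPKM. The listed transcript is a retained-intron form of 4895 nt for Vldlr and a nonsense-mediated decay form of 3291 nt for Lrp8. Whether the values belong to these forms or to the whole genes is unknown. Mylip, counted among the 6 though not itself a receptor gene, was at 5.20 FPKM. Lrp2 was lowest at 0.127 FPKM.

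**Figure D2:**
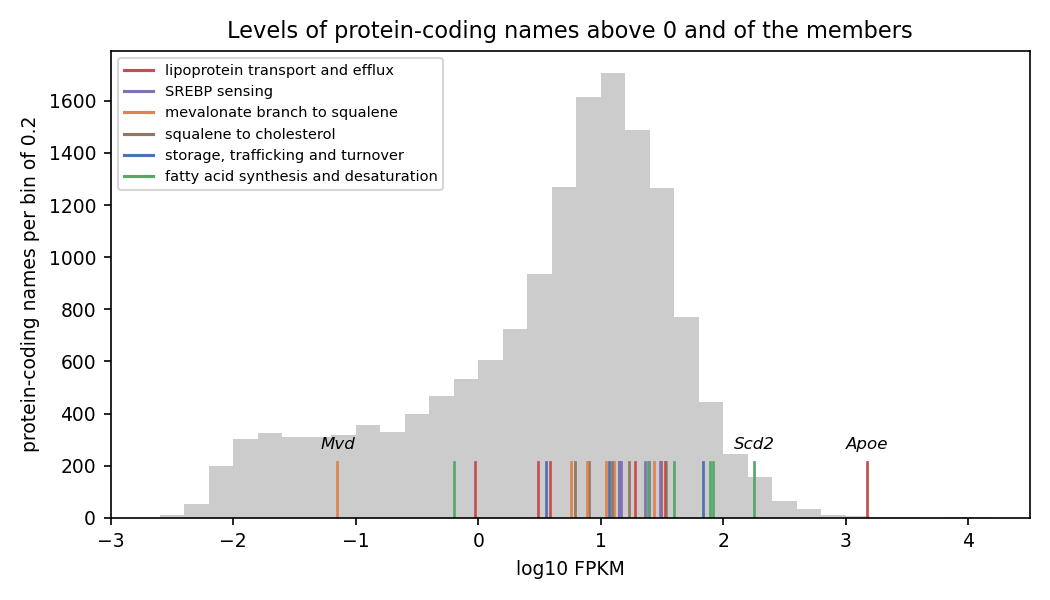
The grey histogram counts protein-coding names above 0 by log10 FPKM in bins of 0.2, and each coloured line marks a member above 0 by role. Most lines fall between 3.05 FPKM (Abca1) and 82.5 FPKM (Fads2), Apoe lies near the upper end of the histogram, and Mvd lies far to the left of the other members.

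The genes of the sterol sensor were all expressed and close to each other. Srebf2, whose product mainly drives cholesterol genes, was at 30.5 FPKM, and Srebf1, whose product mainly drives fatty acid genes, was at 14.0 FPKM, a ratio of 2.17. Scap, the escort protein gene, was at 24.9 FPKM. The retention protein gene Insig1, itself an SREBP target, was at 14.7 FPKM and its relative Insig2 at 23.0 FPKM, a ratio of Insig1 to Insig2 of 0.638. The range over these 5 genes was 2.17-fold, and their median of 23.0 FPKM lay above 83.7% of protein-coding names. Listed transcripts of Scap and Srebf1 were not found in GENCODE M21, the annotation used for transcript types, so their forms are unknown.

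LXR receptors sense oxidised sterols and drive Abca1, Abcg1, Apoe and Srebf1. Nr1h2, which encodes LXR beta, was at 14.5 FPKM, 6.73-fold above Nr1h3, which encodes LXR alpha, at 2.15 FPKM. Their partner genes Rxrb, Rxra and Rxrg were at 27.2, 9.49 and 1.59 FPKM. The listed Rxra transcript is a coding form of 628 nt, against 4905 nt for the longest.

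Sterol synthesis begins with the mevalonate branch, whose 7 members had a median of 7.71 FPKM with Hmgcs1, listed at 0, included. It was 19.6 FPKM with the values of processed pseudogenes added and 3.04 FPKM as a geometric mean. Pmvk, the second kinase of the branch, was highest at 27.3 FPKM, and the first kinase, Mvk, was at 10.9 FPKM. Mvd, which decarboxylates the product of Pmvk, was at 0.0710 FPKM, lower than every other member above 0. Its listed transcript was the full coding form of 1756 nt, and it shared no stretch of 50 bases (a 50-base word) with transcripts of another gene in GENCODE M21. An entry on the opposite strand, AC114005.5, which holds no value, covers the whole Mvd entry. Whether this moved the value of Mvd was not tested.

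Idi1, which interconverts the isoprenoid building blocks, was at 7.71 FPKM, Fdps, which joins them into farnesyl diphosphate, at 5.72 FPKM, and Fdft1, the squalene synthase, at 12.8 FPKM. These 3 genes have processed pseudogenes that are listed in the table with values of their own. Gm3571, which shares 40.1% of the 50-base words of the Fdps transcript, was at 23.2 FPKM, more than Fdps itself. For Idi1 the pseudogene was Gm13502 at 11.9 FPKM and for Fdft1 it was Gm6781 at 16.5 FPKM. They share 21.3% of the Idi1 words and 10.9% of the Fdft1 words. In each case the parent gene had the lower value. Summed with the listed pseudogenes, Fdps came to 28.9 FPKM, Idi1 to 19.6 FPKM and Fdft1 to 29.3 FPKM. FPKM is corrected for the length of each entry, so these sums, and the branch median that uses them, are not corrected levels of the parent genes. Of the words of Fdps, 86.4% occurred in some other gene of GENCODE M21. The largest share, 77.3%, was with Gm43738, for which no value was used here. With 40.1% shared with Gm3571, the division of reads between Fdps and that pseudogene is uncertain. Where the reads came from was not tested. Fdft1 also shares 19.9% of its words with its neighbour Ctsb, a lysosomal protease gene at 69.2 FPKM, which it overlaps on the opposite strand.

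**Figure D3:**
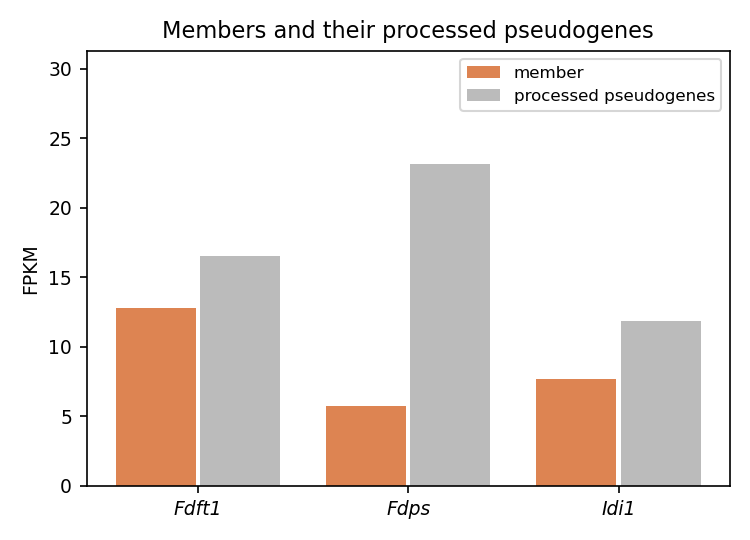
FPKM of 3 sterol enzyme genes (orange bars, left) and of the processed pseudogenes that share 50-base words with them (grey bars, right), each bar 1 group value with no error. In all 3 pairs the grey bar is higher, and the gap is widest for Fdps, at 5.72 FPKM against 23.2 FPKM.

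Hmgcs1, the enzyme that makes HMG-CoA for the sterol pathway, had no usable value. The table carried its name on 2 entries, both on the unplaced piece 13_random of mm9 (bases 114701 to 132325 and 308611 to 326235), both listed at 0 and neither with an identifier found in GENCODE M21.

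From squalene onwards all 5 members were expressed within a narrow range. Sqle, the epoxidase that commits squalene to sterols, was at 17.0 FPKM, and Lss, which closes the sterol rings, was at 6.15 FPKM. Cyp51, which removes a methyl group from lanosterol, was at 14.2 FPKM, and Nsdhl, which acts in the removal of further methyl groups, was at 8.04 FPKM. Dhcr7, the last step of the Kandutsch-Russell route, was at 12.4 FPKM. The range over these 5 was 2.76-fold. Sqle, Dhcr7 and Lss rest on noncoding listed transcripts in GENCODE M21, namely a retained-intron form of 4467 nt for Sqle and processed transcripts of 682 nt for Dhcr7 and 352 nt for Lss. Whether such a value belongs to that form or to the whole gene is unknown.

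Other enzymes of the same pathway lay at like levels. Of 7 such genes, all reached 1 FPKM, as did 56.4% of protein-coding names. Their median was 12.6 FPKM, against 9.49 FPKM for the 12 member enzymes. Msmo1, the sterol methyl oxidase, was highest at 35.0 FPKM, followed by the sterol desaturase gene Sc5d at 20.5 FPKM, and Lbr, a nuclear envelope protein with sterol reductase activity, was lowest at 3.03 FPKM. Over 18 enzymes taken in pathway order, a set that leaves out Lbr, 16 (88.9%) reached 1 FPKM, against the same 56.4%. These 16 spanned 3.84 FPKM, for Hsd17b7, to 35.0 FPKM.

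**Figure D4:**
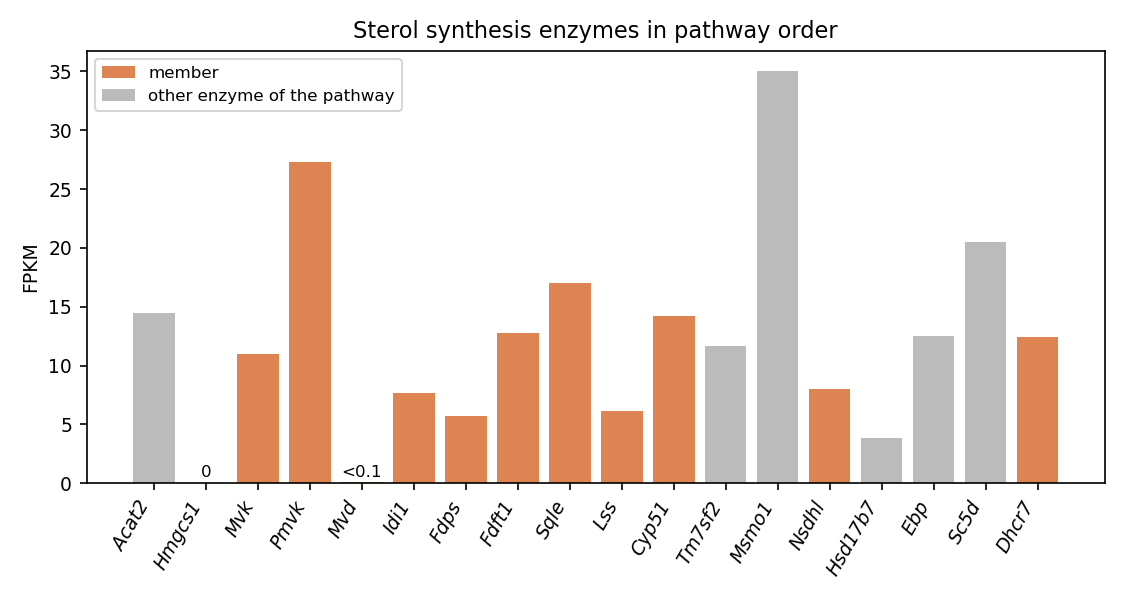
FPKM of 18 sterol synthesis enzymes in pathway order from Acat2 to Dhcr7, with members in orange and the other enzymes in grey, 1 group value per bar and no error. The highest bar is Msmo1 at 35.0 FPKM, and the gaps at Hmgcs1 (listed at 0) and Mvd (0.0710 FPKM) interrupt the series.

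Among genes that store, move or remove cholesterol, the removal enzyme stood highest. Cyp46a1, the neuronal hydroxylase that makes 24S-hydroxycholesterol, was at 67.5 FPKM, above 95.6% of protein-coding names and above every sterol synthesis enzyme named here. It exceeded Cyp27a1, the sterol 27-hydroxylase gene at 0.294 FPKM, by 230-fold without a pseudocount. It was 3.97-fold above Cyp7b1, the oxysterol 7-alpha-hydroxylase gene, at 17.0 FPKM. The other sterol hydroxylase genes were near or at 0, with Ch25h at 0.0395 FPKM and the liver bile acid enzyme gene Cyp7a1 listed at 0.

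Soat1, which esterifies cholesterol for storage, was at 3.59 FPKM, and Soat2, its intestinal and hepatic relative, was listed at 0. Cyp46a1 exceeded Soat1 by 18.8-fold. The listed Soat1 transcript is a coding form of 2925 nt, against 8371 nt for the longest. The lysosomal export pair was balanced, with Npc2, the soluble carrier, at 14.1 FPKM and Npc1, the membrane transporter, at 11.6 FPKM, a ratio of 1.22. Over 8 related storage and oxidation genes the median was 2.45 FPKM and 4 of the 8 reached 1 FPKM, against 56.4% of protein-coding names, led by the oxysterol-binding protein gene Osbp at 17.5 FPKM. This median was 8.21 FPKM without genes listed at 0, 14.4 FPKM over those at 1 FPKM or more and 1.22 FPKM as a geometric mean.

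Fatty acid genes had the highest median of the 6 roles, 36.7 FPKM over 8 genes. By geometric mean of FPKM + 0.1, which gives the low values more weight, they came to 15.0 FPKM, with Acacb at 0 included, below the 20.5 FPKM of the SREBP sensing genes and the 16.8 FPKM of the lipoprotein genes. Acly, which makes cytosolic acetyl-CoA from citrate, was at 39.6 FPKM, and Fasn, the synthase that builds palmitate, was at 33.7 FPKM, a ratio of Acly to Fasn of 1.17. Between these steps stand the acetyl-CoA carboxylases. Acaca, the cytosolic form, was at 0.629 FPKM, so that Fasn lay 53.6-fold above it, and Acacb, the mitochondria-associated form, was listed at 0. The listed Acaca transcript is a coding form of 889 nt, against 9513 nt for the longest. The full-length form shares 52.6% of its words with the processed pseudogene Gm5182, for which no value was used here. The part of either in the value of Acaca was not tested.

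The desaturase genes Scd2, Fads2 and Fads1 were the highest of the 8 fatty acid genes, while the desaturase gene Scd1 lay below Acly and Fasn. Scd2, the main stearoyl-CoA desaturase of mouse brain, which makes oleate and palmitoleate, was at 179 FPKM, above 98.9% of protein-coding names. Scd1, the main form of liver and adipose tissue, was at 24.3 FPKM, so that Scd2 exceeded it by 7.35-fold. They lie on chromosome 19 in mm9, Scd2 at 44368166 to 44381354 on the plus strand and Scd1 at 44468941 to 44482199 on the minus strand, 87586 bases apart. Scd1 shared 3.03% of its 50-base words with Scd2, and Scd2 shared 2.68% with Scd1. The other family members, looked up after these values were seen, were Scd3 at 1.02 FPKM and Scd4 at 0.0620 FPKM.

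Fads2 and Fads1, the delta-6 and delta-5 desaturases that turn dietary fatty acids into arachidonate and docosahexaenoate precursors, were at 82.5 and 77.9 FPKM. Their ratio was 1.06, the nearest to equal of the pairs with 2 values above 0. They too are neighbours on chromosome 19, on opposite strands and 81384 bases apart. Fads3, a related gene looked up afterwards, was at 8.08 FPKM. Scd2 was 2.17-fold above Fads2, and Fads2 was 2.44-fold above Fasn.

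**Figure D5:**
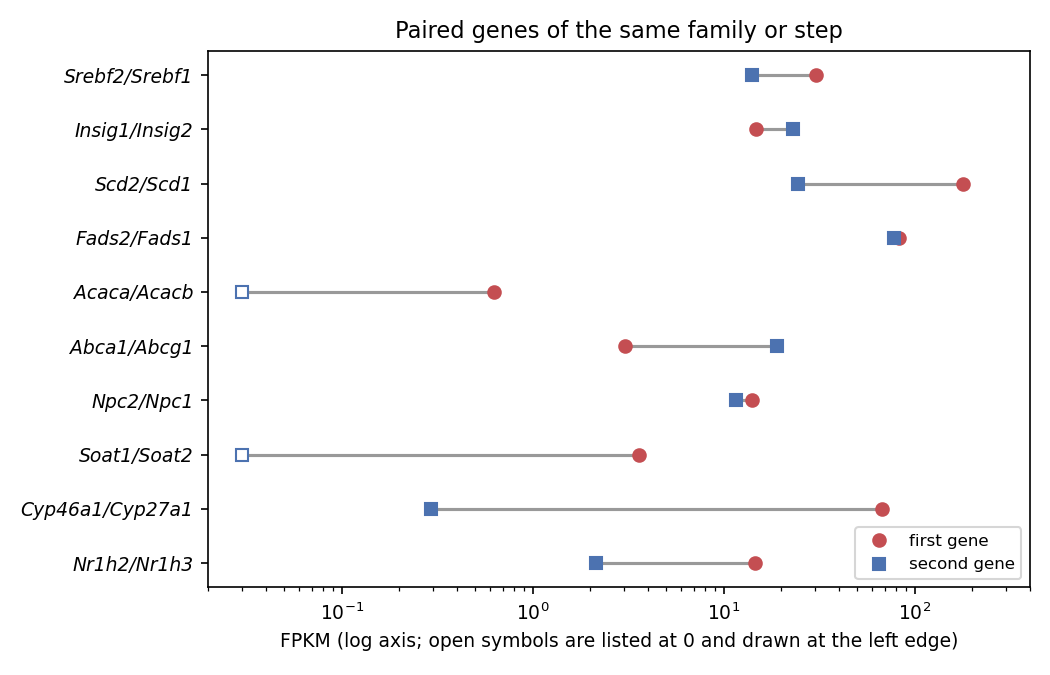
FPKM on a log axis for 10 pairs of genes of the same family or step, with the first gene of each name as a red circle and the second as a blue square. The symbols of Fads2 and Fads1 nearly coincide, those of Cyp46a1 and Cyp27a1 are farthest apart among pairs with 2 values above 0, and open symbols mark Acacb and Soat2, listed at 0.

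The elongases act next to the desaturases. Of 9 genes of the elongation cycle, 7 reached 1 FPKM, against 56.4% of protein-coding names. Their median was 6.75 FPKM over all 9, or 10.2 FPKM without Elovl3, listed at 0, and 13.7 FPKM over those at 1 FPKM or more. Tecr, the reductase that ends each round, was at 130 FPKM and Hsd17b12, the ketoreductase, at 37.0 FPKM. Elovl5 and Elovl4, elongases of polyunsaturated and very long fatty acids, were at 24.8 and 13.7 FPKM, and Elovl3 was listed at 0.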

How the data were processed

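Poly(A) RNA of 3 libraries was sequenced on an Illumina HiSeq2000, per the labels' protocols. The submitters' processing notes name TopHat, Cufflinks and the builds mm9 and NCBIM37. The values are FPKM, deposited by the authors as 1 column for the group. Whether it pools reads or averages libraries, and whether a value belongs to the gene or to its listed transcript, is not stated by the sources used. Of 37681 entries, 36469 hold a value. A 0 can be a failed estimate, so such genes are called listed at 0; none of 76 cytosolic ribosomal protein names was at 0.

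The 36 genes were matched by symbol to 37 entries and values of a shared symbol were summed. Gene and transcript types came from GENCODE M21 by identifier, and no coordinate of it was used. The 50-base words of the longest coding transcript of each gene were searched in transcripts of all other genes. This search and the motif search were tested on simulated data. The authors' table has no values per library, so the planned limma tests and the removal of single libraries were not run and no p-value is given. The genes, lists and pairs were chosen with earlier results of these data known. All 36 genes are named, with the 2 highest and the lowest of each pathway list and both genes of each pair; marker lists are given by range or median, and other genes were added where a result touched them. Some other genes are not reported here. Alternatives changed the low-value filter, the summary, the threshold, the pseudocount (0.1 and 1), shared symbols and the entries used. Versions were pandas 2.3.3, numpy 2.4.6 and matplotlib 3.10.9 under Python 3.11.15. Promoters are from RefSeq.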

Additional observations from a re-analysis of the deposited data

How the results depend on the processing

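With no replicate error to judge by, a value is said to have moved when it changed by more than 1.5 times. Of 111 alternative values for 24 results, 95 did not move. A reversal was looked for only in the ratios of pairs, and none of the settings used there could have produced it. Part of these 95 could not have moved. Hmgcs1 was the only gene used with more than 1 entry, and both were at 0, so the shared-symbol setting changed nothing. Removing genes listed at 0 or adding pseudogene values likewise left lists without such genes as they were. The 95 is therefore no measure of stability. The member median stayed between 11.2 and 18.1 FPKM in all 8 alternatives tried, among them the shared-symbol setting that could not change it. The count of 24 of 36 members at 10 FPKM or more was 14 of 36 at 20 FPKM, where no share of protein-coding names was computed. It was 15 of 22 over the members whose entries overlap no other entry, a lower count from a smaller set. Without overlapping entries the lipoprotein median was 3.87 FPKM, the value of Lpl, because only Apoe, Abca1 and Lpl were left. Among the genes dropped, Abcg1 and Lrp1 overlap entries listed at 0 over 0.220% and 1.59% of their length. Adding pseudogene values gave a mevalonate branch median of 19.6 FPKM. Geometric means gave 3.04 FPKM for the mevalonate branch, 15.0 for fatty acid synthesis and 6.79 for lipoprotein uptake genes other than Lrp1. They gave 0.412 for apolipoproteins other than Apoe and 1.22 for sterol storage and oxidation. With members at 1 FPKM or more, medians were 58.8 FPKM for fatty acid synthesis and 309 for apolipoproteins other than Apoe. That 309 rests on 2 of 10 genes, Clu and Apod. Medians at this filter were 13.7 for elongation and 14.4 for storage and oxidation. Without members listed at 0, the last 2 were 10.2 and 8.21 FPKM. With a pseudocount of 1 FPKM, Cyp46a1 over Cyp27a1 was 53.0. The overlap and pseudogene settings and the removal of genes listed at 0, or of members unmatched or sharing over 50% of their words, were chosen after seeing the data. The depth is unknown, and all values rest on a single column. No paired analysis was possible because the table has 1 group and 1 column of values. Leaving out each library could not be run for the same reason.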

Other observations

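Genes that activate, bind and burn fatty acids were also expressed. Of 11 genes of activation and binding, all reached 1 FPKM, against 56.4% of protein-coding names, with a median of 30.8 FPKM. Dbi, the acyl-CoA-binding protein, was highest at 280.1 FPKM, followed by the acyl-CoA synthetase gene Acsl3 at 63.4 FPKM, and Acsl4 was lowest at 1.37 FPKM. The glial synthetase gene Acsbg1 was at 59.4 FPKM, and the fatty acid-binding protein genes Fabp5 and Fabp7 were at 45.2 and 30.8 FPKM.

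Of 13 genes of mitochondrial fatty acid oxidation, 12 (92.3%) reached 1 FPKM, against the same 56.4%, with a median of 13.4 FPKM, close to the 14.2 FPKM of the 36 lipid genes. Echs1, the enoyl-CoA hydratase, was highest at 47.1 FPKM, and Cpt1b, the muscle form of carnitine palmitoyltransferase, was lowest at 0.453 FPKM. Cpt1c, the brain form, which lies in the endoplasmic reticulum, was at 36.8 FPKM, 5.67-fold above Cpt1a, the widely expressed mitochondrial form, at 6.48 FPKM.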
